A study of Homo sapiens with 12 samples.

Results

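The solute carriers described here are the SLC genes that were expressed in human K562 leukemia cells and in a pair of lines derived from them. A gene was a member if it was protein-coding, had a symbol of the SLC pattern (SLC, a family number, A and a further number) and had a mean of at least 1 CPM (counts scaled to a total of 1e6 a sample) over the 12 samples. SLC4A1, SLC11A2, SLC25A37 and SLC40A1 were left out by name. The rule gave 181 members out of 60671 counted genes. They were 181 of the 340 protein-coding genes with such a symbol, while 155 others lay under 1 CPM, 8 of these with 0 counts in all 12 samples. All 181 members passed the filter on low counts and were tested. The members came from 44 of the 50 families in the pattern, and 3 of them (SLC4A1AP, SLC2A4RG and SLC7A6OS) carry an SLC symbol but are not carriers.

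The study compared etoposide resistance that was acquired under drug with resistance made by editing TOP2α, the gene of the enzyme that etoposide targets. K562 is a human erythroleukemia line and served as the parent. K/VP.5 is a clonal line selected from K562 for resistance to etoposide. K562/SSedit-2 is a clone made with CRISPR/Cas9 and homology-directed repair, in which 2 of the 3 TOP2α alleles carry a silenced 5′ splice site at the border of exon 19 and intron 19 (E19/I19). Each derived line was 1 clone, so a difference between lines cannot be told apart from a difference between clones. All cells grew in DMEM with 10% FBS, RNA was taken in mid-log phase, and each line gave 4 replicates. Total counts per sample ranged from 36883518 to 43648830 in K562, from 28981722 to 39944440 in K/VP.5 and from 32355417 to 37619488 in K562/SSedit-2.

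The replicates were not all alike. Compared as count profiles, pairs of replicates had a chi-square per degree of freedom of 53.5, 56.4 and 54.7 for K562 replicate 1 against the other K562 replicates, and 4.82 to 19.5 for the remaining pairs within a line. Counts of members called are therefore also given without that sample. In bulk RNA, fewer cells of a type and less RNA per cell cannot be told apart.

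Solute carriers are membrane proteins that move amino acids, sugars, nucleosides, vitamins, metals and ions across the plasma membrane and the membranes of organelles, either along a gradient or coupled to sodium, protons or an exchanged solute. Proliferating leukemia cells draw on them for essential amino acids and glucose, and for the release of lactate. Most carriers of the SLC25 family sit in the inner mitochondrial membrane, where they exchange nucleotides, phosphate and metabolites with the cytosol.

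Levels were compared between genes as CPM per kilobase of merged annotated exon, with CPM scaled by TMM factors. Merged exon length is not the length of the expressed transcript, so ranks between genes depend on the annotation. SLC25A3, highest by mean CPM at 779, ranked 6 per length with 8896 bases of merged exon. Because the members were selected on mean CPM, these levels are a description without a test. The median member had 3.797 CPM per kb, with quartiles of 1.145 and 12.8, a lowest value of 0.119 and a highest of 401. The 12 members of highest level held 57.5% of the summed per-length level, the highest 25 held 72.8% and the highest 50 held 86.2%. The ADP/ATP carrier SLC25A5 came first with 421 CPM per kb for K562, 304 for K/VP.5 and 479 for K562/SSedit-2. The citrate carrier SLC25A1 came next in K562, with a level of 329.5 CPM per kb there, 231 for K/VP.5 and 304 for K562/SSedit-2. The order of SLC25A1 and SLC25A6, another ADP/ATP carrier, differed between lines, since SLC25A6 had 242 CPM per kb for K/VP.5. The glutamine carrier SLC1A5, the light-chain partner SLC3A2, the mitochondrial phosphate carrier SLC25A3, the leucine carrier SLC7A5, the phosphate carrier SLC20A1, the glutamine carrier SLC38A5, the mitochondrial glutathione carrier SLC25A39, the lactate carrier SLC16A1 and the chloride/bicarbonate exchanger SLC4A2 completed the 12. By role, the 39 SLC25 members, here called mitochondrial carriers by family although SLC25A17 is peroxisomal and SLC25A46 lies in the outer membrane, held 47.2 ± 0.418% (mean ± SD, n = 4) of the summed level in K562, 45.2 ± 0.846% for K/VP.5 and 47.2 ± 0.276% for K562/SSedit-2. The 29 carriers of amino acids and peptides held 21.4 ± 0.213%, 22.4 ± 0.574% and 21.8 ± 0.126% in the same order. Members nearest the limit were SLC49A4 at 1.04 CPM, SLC16A5 at 1.11 and SLC25A41 at 1.154 on the inside, and SLC16A10 at 0.986, SLC7A7 at 0.985 and SLC10A1 at 0.941 on the outside.

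**Figure D1:**
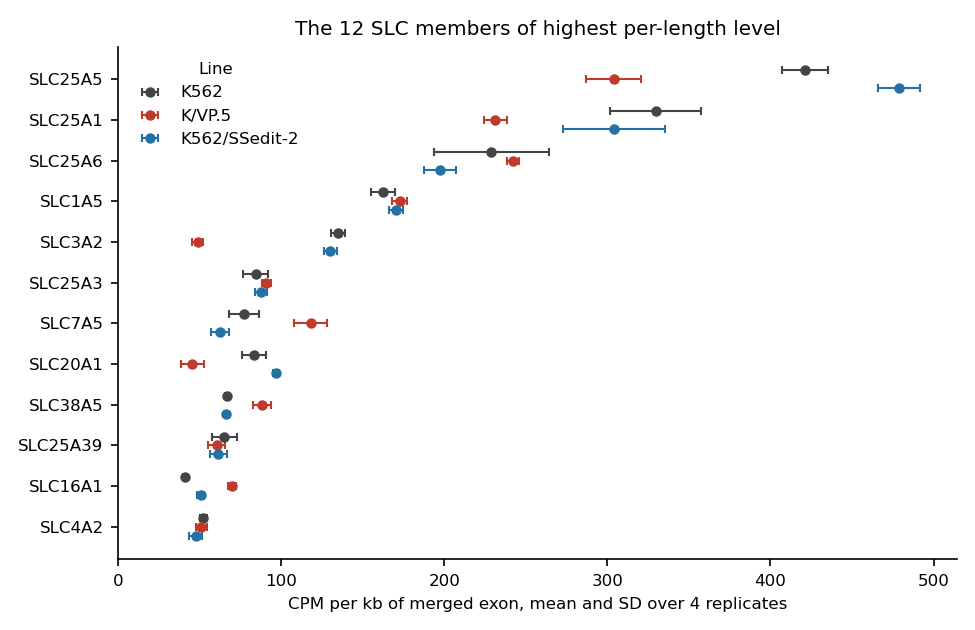
Level of the 12 members of highest per-length level, in CPM per kilobase of exon, as mean and SD of the 4 replicates of each line. SLC25A5 is highest in all 3 lines, SLC3A2 is at 135 for K562 and 48.7 for K/VP.5, and SLC1A5 lies between 162 and 173 in all 3.

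Differences between lines were tested with edgeR's quasi-likelihood F test over all 18626 genes that passed the filter. A gene was called at a log2 fold change of 1 or more in size and an adjusted p under 0.1. In K/VP.5 against K562, 30 of 181 members were called, which is 16.6%, against 15.6% of all tested genes and 12.5% of the protein-coding genes of at least 1 CPM. Of these 30, 15 were higher in K/VP.5, where the background shares were 8.98% and 6.52%, and 15 were lower, where they were 6.66% and 5.95%. Fewer members, 4, were called in K562/SSedit-2 against K562, which is 2.21%, beside 2.06% and 1.53%. These were 2 higher, beside backgrounds of 0.805% and 0.492%, and 2 lower, beside 1.26% and 1.04%. Between the derived lines (K562/SSedit-2 against K/VP.5), 32 members were called, or 17.7%, against 15.8% and 12.6%. Of these, 14 were higher, beside 6.2% and 5.12%, and 18 were lower, beside 9.62% and 7.44%. SLC7A2, SLC37A1 and SLC30A4 reached 1 CPM in K/VP.5 alone, so they were members through the line where they are high and had to differ, and no test of them is given. Without these 3, 27 of 178 members were called in K/VP.5 against K562 (12 higher, 15 lower) and 29 between the derived lines (14 higher, 15 lower). SLC16A5, which passed the CPM limit through its K562 values, is among the 15 lower in K/VP.5 against K562. SLC52A3, which passed it through K562 and K562/SSedit-2, is among these 15 and among the 14 higher between the derived lines. Without K562 replicate 1, 31 members were called in K/VP.5 against K562, 5 in K562/SSedit-2 against K562 and 30 in the comparison of the derived lines. The 5 include SLC7A2, of which no test is given. Both comparisons with K562 use the same 4 K562 samples, so their values stand side by side and are not independent.

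The median log2 fold change of the 180 members other than SLC7A2, which had almost no counts outside K/VP.5, was -0.03 in K/VP.5 against K562, -0.05 in K562/SSedit-2 against K562 and -0.08 in K562/SSedit-2 against K/VP.5. Over all tested genes, the medians were 0.01, -0.01 and -0.01. By role in K/VP.5 against K562, the calls stand beside 8.98% of all tested genes called higher and 6.66% called lower. The 22 carriers of organic ions, monocarboxylates and fatty acids had 1 member called higher and 6 lower, SLC16A5 among the 6. In the same order, the 29 carriers of amino acids and peptides had 3 and 3, the 19 of sugars and inositol 3 and 2, and the 22 of metals 2 and 1, each with 1 of the 3 members that entered through K/VP.5 among the higher. The 39 mitochondrial carriers had 3 and 1, and the 23 of inorganic ions 2 and 0. The 18 of nucleosides, vitamins, choline and heme had 1 and 2, SLC52A3 among the 2. None of the 6 nucleotide sugar and acetyl-CoA carriers of the secretory pathway was called by edgeR, and the 4 with an adjusted p under 0.1, all with a negative log2 fold change, stand beside 52.3% of all tested genes and 60.6% of protein-coding genes of at least 1 CPM under that limit. The two-sided exact permutation test over the 70 arrangements gave p = 0.0286, its smallest value, wherever the ranges of 2 lines did not overlap. This p followed from the lack of overlap and was not adjusted for the number of genes. The largest rises and falls were named only where ranges did not overlap, so for them it adds no support. That test takes the samples as unpaired and does not use the replicate numbers.

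**Figure D2:**
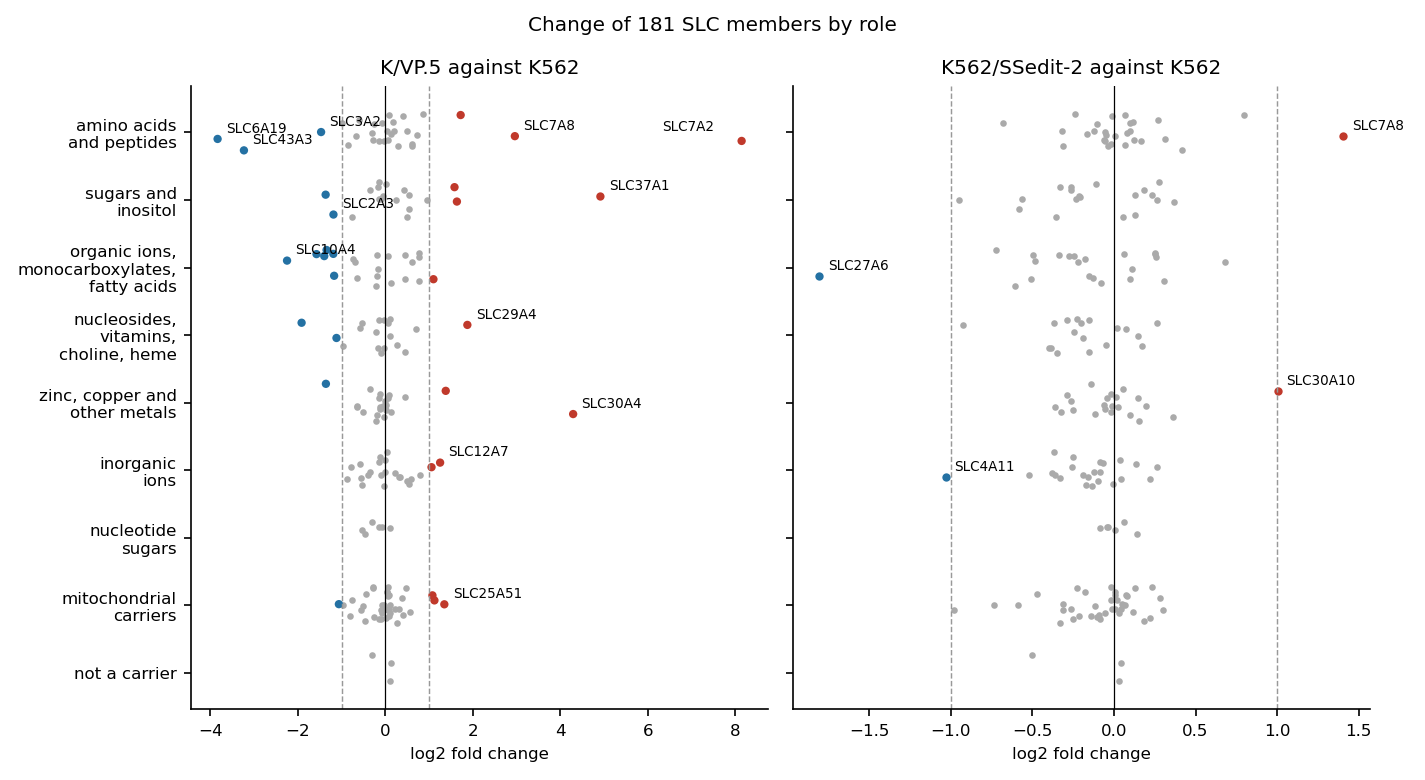
Log2 fold change of each member against K562, by role, for K/VP.5 on the left and K562/SSedit-2 on the right, with 1 point a member, called members in red (higher) or blue (lower) and dashed lines at the log2 cutoff of 1. The left panel has 15 red and 15 blue points and the right panel 2 of each, SLC7A2 is not drawn on the right, where it had 0 to 2 counts a sample, and its place on the left depends on the prior count of the fit.

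Among amino acid carriers, SLC7A2 (ENSG00000003989) imports arginine and lysine and was close to absent outside K/VP.5. Its raw counts in replicates 1 to 4 were 0, 1, 2 and 1 for K562, 351, 326, 258 and 224 for K/VP.5, and 0 in every K562/SSedit-2 sample. The ratio of K/VP.5 to K562 was 323, with a 95% range of 126 to 1189 for counting error alone, because K562 had 4 counts in all. Against K562/SSedit-2, SLC7A2 was at least 378-fold higher in K/VP.5, taking 3 counts over the K562/SSedit-2 group as the floor. The ratio and the floor describe the levels and are no test, because SLC7A2 was a member through K/VP.5 alone. The widely expressed carrier of the same amino acids, SLC7A1, had 143 ± 14.6 CPM for K562, 235 ± 17.7 for K/VP.5 and 138 ± 7.37 for K562/SSedit-2, and was chosen for this comparison after its values were seen. Its log2 fold change in K/VP.5 against K562, 0.72, was under the cutoff.

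SLC7A8 (ENSG00000092068, chromosome 14 from 23125295 to 23183674 on the minus strand) is a light chain that pairs with SLC3A2 to exchange neutral amino acids. Its CPM in replicates 1 to 4 was 6.93, 6.49, 6.22 and 5.32 for K562, 51.5, 47.1, 48.6 and 47.00 for K/VP.5 and 20.03, 15.3, 15.9 and 14.9 for K562/SSedit-2. The ranges of the 3 lines did not overlap, with K/VP.5 highest and K562 lowest. SLC7A8 rose in K/VP.5 (log2 fold change 2.96, SE 0.11, adjusted p = 1.56e-12) and in K562/SSedit-2 (log2 fold change 1.41, SE 0.11, adjusted p = 3.36e-07), and between the derived lines K562/SSedit-2 was lower (log2 fold change -1.56).

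SLC3A2 (ENSG00000168003, chromosome 11 from 62856004 to 62888880 on the plus strand) encodes the heavy chain that brings SLC7 light chains to the cell surface. Its CPM was 844, 897, 872 and 836 for K562, 309, 289, 306 and 341 for K/VP.5 and 839, 810.0, 863 and 809.7 for K562/SSedit-2. Every K/VP.5 sample lay below every sample of the other lines, whose ranges overlapped. SLC3A2 fell in K/VP.5 against K562 (log2 fold change -1.47, SE 0.06, adjusted p = 7.86e-12). Its most abundant light chain, the leucine carrier SLC7A5, had CPM of 428, 374, 332 and 339 for K562, 506, 577, 547 and 619 for K/VP.5 and 289.6, 331, 296 and 269 for K562/SSedit-2. SLC7A5 was higher in all K/VP.5 samples than in all K562 samples, with a log2 fold change of 0.61 (adjusted p = 2.83e-05) under the cutoff. The cystine/glutamate exchanger SLC7A11, another light chain, had 20.1 ± 6.72 CPM for K562, 30.7 ± 4.14 for K/VP.5 and 19.8 ± 1.41 for K562/SSedit-2, and its K562 and K/VP.5 ranges overlapped.

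SLC3A2 and SLC7A5 thus had log2 fold changes of opposite sign in K/VP.5 against K562. Per length, the level of SLC3A2 divided by the summed level of SLC7A5, SLC7A6, SLC7A8 and SLC7A11 was 1.31, 1.60, 1.70 and 1.59 in the K562 replicates and 0.381, 0.322, 0.357 and 0.359 in those of K/VP.5. It was 1.77, 1.56, 1.81 and 1.83 for K562/SSedit-2. The means were 1.55 ± 0.166, 0.355 ± 0.0242 and 1.74 ± 0.126, and all K/VP.5 ratios lay below those of the other lines. Lengths were of merged annotated exons, 6392 bases for SLC3A2 and 4764 for SLC7A5. The ratio therefore depends on the annotation and is not a ratio of molecules. SLC7A5 made up 88.01 ± 1.42% of the summed light-chain level in K562, 85.6 ± 1.53% for K/VP.5 and 83.02 ± 1.80% for K562/SSedit-2. The share of SLC7A8 was 1.19 ± 0.0942%, 5.92 ± 0.650% and 3.70 ± 0.576% in the same order. SLC7A6 shares 55.6% of its exon bases with SLC7A6OS, so its count is uncertain.

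**Figure D3:**
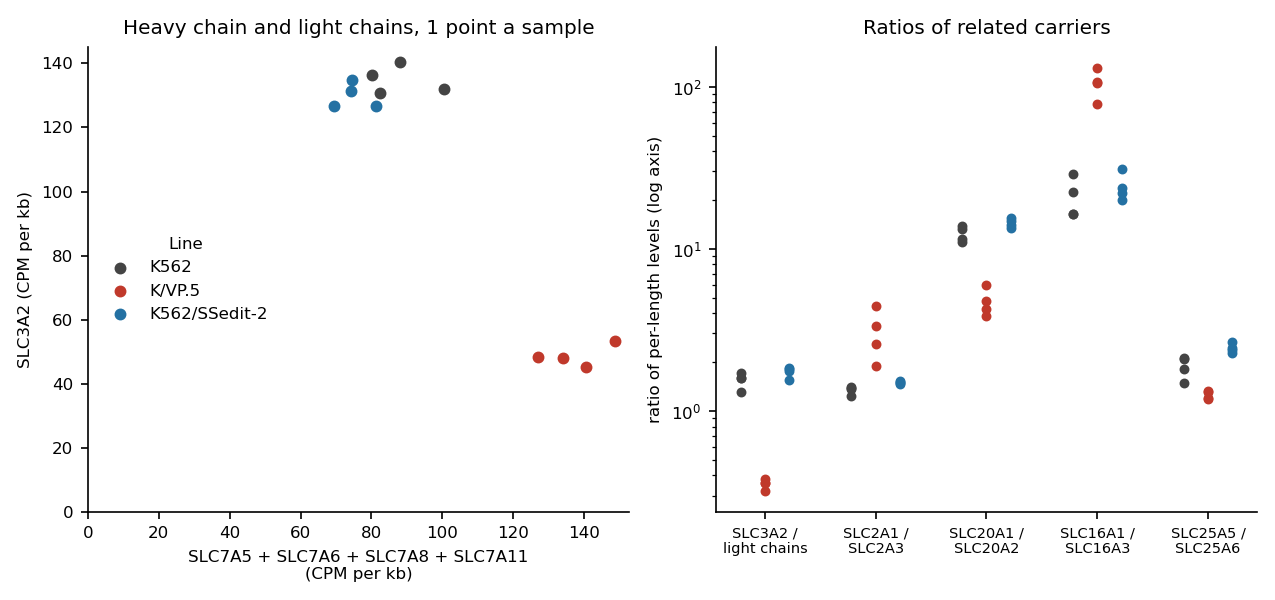
Per-length level of SLC3A2 against the summed level of its light chains (left, CPM per kb) and ratios of per-length levels of related carriers (right, log axis), with 1 point a sample. The ratio of SLC3A2 to its summed light chains is 1.31 to 1.70 in K562 and 0.322 to 0.381 in K/VP.5, and the ratio of SLC16A1 to SLC16A3 is 16.3 to 28.9 in K562 and 78.3 to 130.3 in K/VP.5.

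SLC6A19 (ENSG00000174358, chromosome 5 from 1201595 to 1225111 on the plus strand) is a sodium-coupled carrier of neutral amino acids best known from kidney and gut. Its CPM was 60.7, 46.2, 40.9 and 37.1 for K562, 3.45, 3.62, 3.24 and 2.54 for K/VP.5 and 67.6, 57.6, 57.4 and 46.5 for K562/SSedit-2. All K/VP.5 values lay below all others, while K562 and K562/SSedit-2 overlapped. SLC6A19 fell in K/VP.5 against K562 (log2 fold change -3.84, SE 0.17, adjusted p = 1.76e-11), the largest fall among the members, and between the derived lines K562/SSedit-2 was higher (log2 fold change 4.15). Its promoter is shown as that of the member with the largest fall, from the RefSeq table for GRCh38.p14, as the 250 bases before the start (chr5:1201345-1201594, plus strand, in no gene of GENCODE 44). The capitals mark a match to AGATAA, the core letters bound by GATA factors, which begins 131 bases before the start.
SLC6A19: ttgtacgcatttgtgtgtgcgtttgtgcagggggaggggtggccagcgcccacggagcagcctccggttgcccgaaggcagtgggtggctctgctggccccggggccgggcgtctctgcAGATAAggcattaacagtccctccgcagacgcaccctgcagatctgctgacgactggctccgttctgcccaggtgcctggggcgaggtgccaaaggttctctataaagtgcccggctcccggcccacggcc

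SLC43A3 (ENSG00000134802, chromosome 11 from 57406954 to 57427580 on the minus strand) belongs by family to the amino acid carriers but is known to carry purine nucleobases. Its CPM was 113, 125, 111 and 114 for K562, 12.7, 10.8, 12.02 and 13.7 for K/VP.5 and 162, 152, 149 and 155 for K562/SSedit-2. The 3 ranges did not overlap. Of the exon bases of SLC43A3, 29.9% lie under another counted gene on the same strand, which leaves its count uncertain. SLC43A3 fell in K/VP.5 (log2 fold change -3.23, SE 0.08, adjusted p = 1.31e-14), and in K562/SSedit-2 it had a log2 fold change of 0.42 against K562 (adjusted p = 0.00127), under the cutoff. SLC1A4, an exchanger of alanine, serine and cysteine, had 4.36 ± 1.21 CPM for K562, 14.4 ± 1.29 for K/VP.5 and 7.56 ± 0.314 for K562/SSedit-2, and rose in K/VP.5 (log2 fold change 1.72, SE 0.15, adjusted p = 7.32e-08).

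The abundant glutamine carriers differed from each other in the size of their changes between lines. SLC1A5 had CPM of 508, 542, 551 and 565 for K562, 564, 572, 567 and 597 for K/VP.5 and 553, 586, 569 and 561 for K562/SSedit-2, and its ranges overlapped in all 3 comparisons. SLC38A1 had 89.8 ± 8.58 CPM for K562 and 45.3 ± 3.04 for K/VP.5, without overlap, at a log2 fold change of -0.98 (adjusted p = 8.52e-08) just under the cutoff. With 95.9 ± 9.43 CPM for K562/SSedit-2, SLC38A1 was called higher there than in K/VP.5 (log2 fold change 1.08, SE 0.09, adjusted p = 2.74e-08). The K562 samples of SLC38A2, a sodium-coupled carrier of small neutral amino acids, were at 335, 198, 199.6 and 206 CPM, with replicate 1 above the rest, and overlapped both other lines. SLC38A5 had 268 ± 4.44 CPM for K562, 354 ± 21.3 for K/VP.5 and 265 ± 2.10 for K562/SSedit-2.

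For sugars, SLC2A1 and SLC2A3 are the main glucose importers of the cell surface. SLC2A1 had CPM of 330.3, 275, 252 and 240.5 for K562, 245, 255, 253 and 237 for K/VP.5 and 348, 344, 331 and 308 for K562/SSedit-2. SLC2A3 (ENSG00000059804, chromosome 12 from 7919230 to 8019007 on the minus strand) had 264, 217, 225 and 189 for K562, 60.8, 147, 107 and 78.1 for K/VP.5 and 258, 249, 247 and 224 for K562/SSedit-2. For SLC2A1 the K562 and K/VP.5 ranges overlapped, whereas for SLC2A3 all K/VP.5 samples lay below the rest and varied more among themselves. SLC2A3 fell in K/VP.5 (log2 fold change -1.19, SE 0.19, adjusted p = 7.99e-05), and so did its near-identical neighbour SLC2A14 (log2 fold change -1.37, SE 0.25, adjusted p = 0.000239). Reads can fit both paralogs, which leaves the count of each uncertain. The ratio of SLC2A1 to SLC2A3 per length was 1.35 ± 0.0794 for K562, 3.06 ± 1.08 for K/VP.5 and 1.495 ± 0.0230 for K562/SSedit-2. The summed per-length level of SLC2A1, SLC2A3 and SLC2A14 was 73.8 ± 10.4 CPM per kb for K562, 51.5 ± 6.49 for K/VP.5 and 85.6 ± 4.50 for K562/SSedit-2.

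SLC37A1 (ENSG00000160190, chromosome 21 from 42496008 to 42581440 on the plus strand) exchanges glucose 6-phosphate for phosphate across the endoplasmic reticulum. Its raw counts were 7, 12, 5 and 17 for K562, 339, 305, 273 and 209 for K/VP.5, and 15, 8, 6 and 2 for K562/SSedit-2. In CPM, these were means of 0.254 ± 0.121, 7.89 ± 0.589 and 0.220 ± 0.149. These values are a description without a test, because SLC37A1 was a member through K/VP.5 alone. SLC2A6, a glucose transporter family member of lysosomes, had 1.28 ± 0.631 CPM for K562, 3.84 ± 0.510 for K/VP.5 and 1.01 ± 0.219 for K562/SSedit-2, and rose in K/VP.5 (log2 fold change 1.58, SE 0.26, adjusted p = 0.000117). SLC45A3, a sugar carrier first described in prostate, had 4.16 ± 0.447, 12.9 ± 1.02 and 5.36 ± 0.757 CPM in that order of lines and rose in K/VP.5 as well (log2 fold change 1.64, SE 0.12, adjusted p = 1.33e-08).

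**Figure D4:**
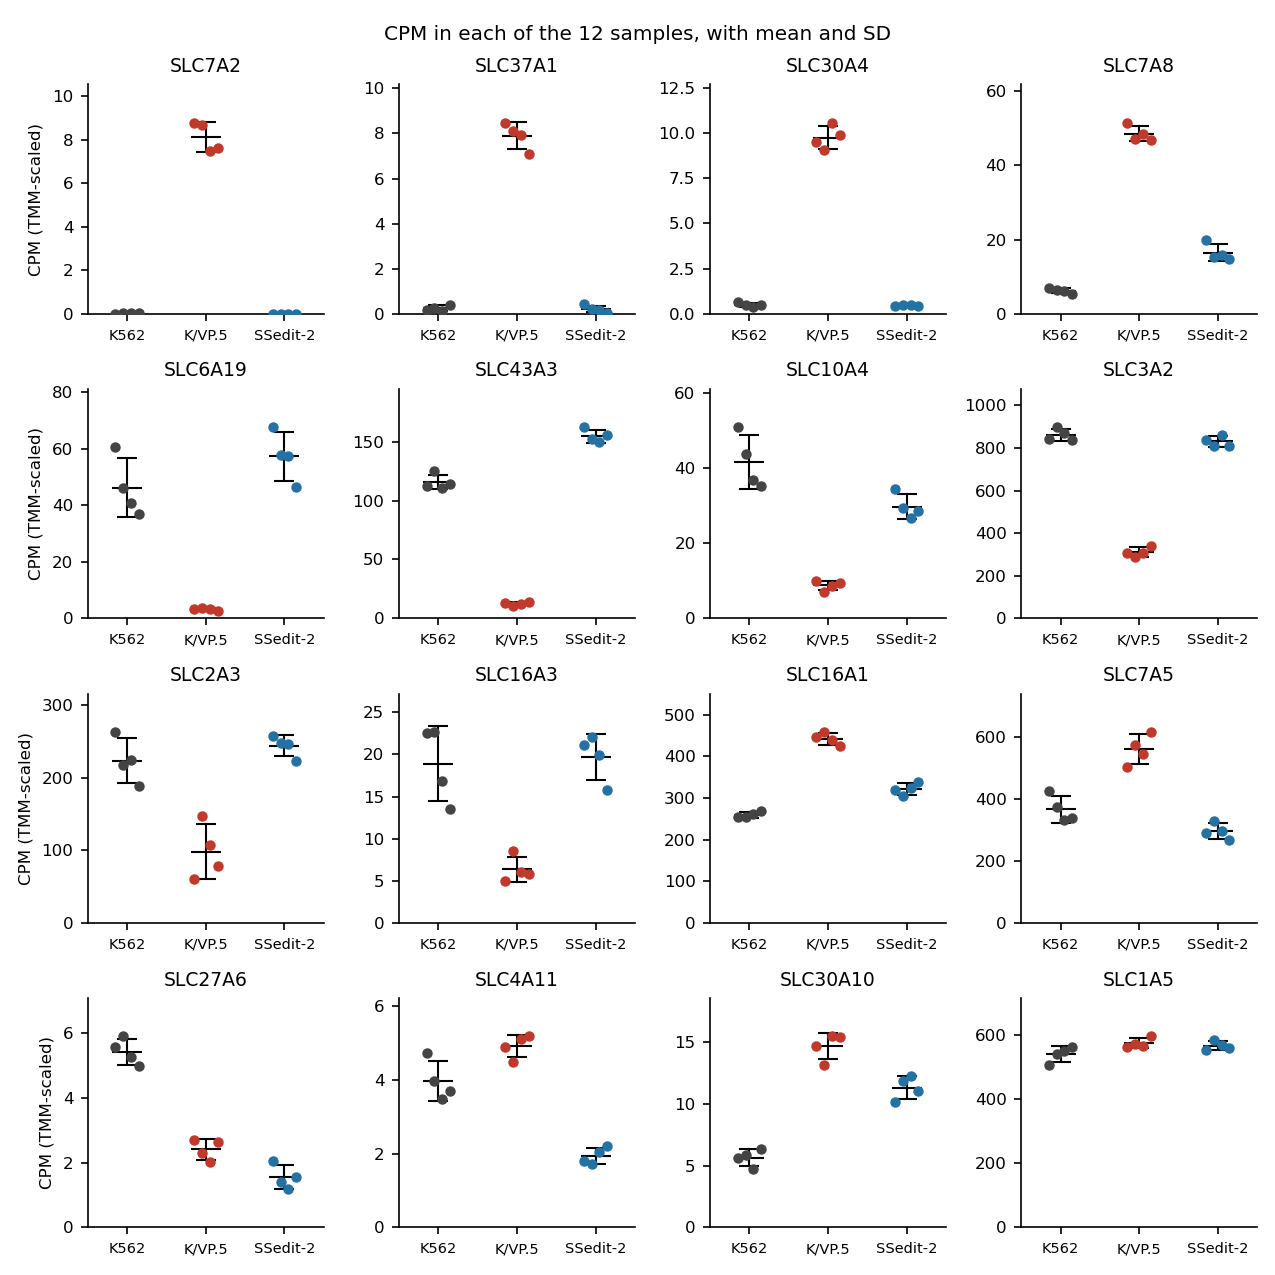
CPM of 16 members in each of the 12 samples, with 1 point a replicate and bars for the mean and SD of each line. SLC7A2, SLC37A1, SLC30A4 and SLC7A8 are high in K/VP.5, SLC6A19, SLC43A3, SLC10A4 and SLC3A2 are low there, and SLC1A5 lies between 508 and 597 in all 12 samples.

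Among carriers of monocarboxylates, SLC16A1 moves lactate and pyruvate in either direction and SLC16A3 serves lactate release. SLC16A1 had CPM of 254, 254, 261 and 269 for K562, 447, 459, 439 and 424 for K/VP.5 and 320.1, 305, 324 and 338 for K562/SSedit-2. These ranges did not overlap, yet the log2 fold changes against K562, 0.77 and 0.31, were under the cutoff. SLC16A3 (ENSG00000141526, chromosome 17 from 82217934 to 82261129 on the plus strand) had CPM of 22.5, 22.7, 16.9 and 13.6 for K562, 4.998, 8.54, 6.08 and 5.76 for K/VP.5 and 21.1, 22.02, 19.95 and 15.8 for K562/SSedit-2. All K/VP.5 samples lay below all others. SLC16A3 fell in K/VP.5 (log2 fold change -1.57, SE 0.18, adjusted p = 2.38e-06). The family member SLC16A5 was at 1.68 ± 0.562 CPM for K562 and 0.665 ± 0.104 for K/VP.5. Its mean over the 12 samples, 1.11 CPM, passed the limit of 1 through the K562 values, so these levels are given without a test. The per-length ratio of SLC16A1 to SLC16A3 was 21.04 ± 5.99 for K562, 105 ± 21.3 for K/VP.5 and 24.3 ± 4.85 for K562/SSedit-2.

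SLC10A4 (ENSG00000145248, chromosome 4 from 48483343 to 48489526 on the plus strand) is a vesicle-associated member of the bile acid transporter family. Its CPM was 50.99, 43.9, 36.8 and 35.3 for K562, 9.92, 7.08, 8.72 and 9.45 for K/VP.5 and 34.5, 29.5, 26.7 and 28.6 for K562/SSedit-2. None of the 3 ranges overlapped. SLC10A4 fell in K/VP.5 (log2 fold change -2.25, SE 0.13, adjusted p = 6.89e-10), and its value against K562 in K562/SSedit-2 was -0.49 (adjusted p = 0.0237), under the cutoff. SLC10A3 (ENSG00000126903, chromosome X from 154487306 to 154490690 on the minus strand), of the same family, had CPM of 37.9, 30.1, 24.1 and 28.4 for K562, 11.7, 11.5, 10.7 and 11.8 for K/VP.5 and 27.1, 27.4, 22.02 and 25.2 for K562/SSedit-2. SLC10A3 was lower in all K/VP.5 samples than in the rest and fell against K562 (log2 fold change -1.40, SE 0.12, adjusted p = 6.46e-08). The promoter window of SLC10A4 (chr4:48483093-48483342, plus strand, in no gene of GENCODE 44) is shown for comparison with that of SLC6A19, as another large fall. It held none of AGATAA, TGATGNAA and TGACNNNGC on either strand and so stands in lower case.
SLC10A4: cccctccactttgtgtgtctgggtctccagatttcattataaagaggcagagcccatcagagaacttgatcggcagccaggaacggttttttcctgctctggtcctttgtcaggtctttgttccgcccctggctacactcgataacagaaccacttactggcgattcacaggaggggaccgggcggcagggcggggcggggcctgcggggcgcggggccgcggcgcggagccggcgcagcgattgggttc

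SLC27A2 and SLC27A6 belong to the fatty acid transport proteins, which take up long-chain fatty acids and join them to coenzyme A. SLC27A2 had 16.4 ± 0.721 CPM for K562, 7.20 ± 0.891 for K/VP.5 and 19.5 ± 0.891 for K562/SSedit-2, and fell in K/VP.5 (log2 fold change -1.19, SE 0.09, adjusted p = 2.65e-08). SLC27A6 (ENSG00000113396, chromosome 5 from 128538013 to 129033642 on the plus strand) had CPM of 5.58, 5.92, 5.27 and 4.98 for K562, 2.70, 2.29, 2.03 and 2.64 for K/VP.5 and 2.06, 1.39, 1.19 and 1.55 for K562/SSedit-2. K562 was above both derived lines in every sample. SLC27A6 fell in K562/SSedit-2 (log2 fold change -1.81, SE 0.17, adjusted p = 2.81e-06) and in K/VP.5, where it was outside the rule for named genes and was added after its value was seen (log2 fold change -1.17, SE 0.16, adjusted p = 1.26e-05). The carnitine carrier SLC22A5, added in the same way, had 14.5 ± 1.17 CPM for K562, 31.2 ± 1.33 for K/VP.5 and 15.5 ± 1.27 for K562/SSedit-2 and rose in K/VP.5 (log2 fold change 1.10, SE 0.08, adjusted p = 1.67e-08).

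Nucleoside and vitamin carriers include the routes of nucleoside drugs and antifolates into cells. The equilibrative nucleoside carrier SLC29A1 had 135 ± 7.09 CPM for K562, 145 ± 9.32 for K/VP.5 and 149.9 ± 6.48 for K562/SSedit-2, with overlapping ranges. SLC29A4, which carries monoamines, had CPM of 2.89, 1.52, 1.24 and 1.41 for K562, 6.47, 6.62, 6.75 and 5.93 for K/VP.5 and 1.28, 0.830, 0.719 and 0.835 for K562/SSedit-2 and rose in K/VP.5 (log2 fold change 1.88, SE 0.22, adjusted p = 3.09e-06). The reduced folate carrier SLC19A1 had 161 ± 2.47 CPM for K562, 159 ± 16.4 for K/VP.5 and 123 ± 9.66 for K562/SSedit-2, and the sign of its K/VP.5 difference, -0.02, turned positive under upper-quartile scaling (0.047), when genes needed 1 CPM in 4 samples (0.0031) and without K/VP.5 replicate 2 (0.043). The proton-coupled folate carrier SLC46A1 had 3.71 ± 0.577, 4.43 ± 0.404 and 3.59 ± 0.399 CPM, but 60.6% of its exon bases lie under SARM1. The riboflavin carrier SLC52A3 had 1.41 ± 0.439 CPM for K562, 0.371 ± 0.112 for K/VP.5 and 1.70 ± 0.212 for K562/SSedit-2. It passed the limit of 1 CPM through the K562 and K562/SSedit-2 values, so these levels are given without a test. The heme carrier SLC48A1, named after its value was seen, fell in K/VP.5 from 62.5 ± 6.75 to 28.8 ± 1.19 CPM (log2 fold change -1.12, SE 0.08, adjusted p = 7.41e-09).

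Zinc carriers of the SLC30 family move zinc out of the cytosol, and those of SLC39 move it in. SLC30A4 (ENSG00000104154, chromosome 15 from 45479606 to 45522755 on the minus strand), which loads zinc into vesicles, had raw counts of 23, 21, 14 and 20 for K562, 380, 340, 365 and 292 for K/VP.5, and 15, 18, 16 and 14 for K562/SSedit-2. In CPM, its means were 0.495 ± 0.105, 9.75 ± 0.647 and 0.455 ± 0.0429, a difference given without a test because its entry rested on K/VP.5 alone. SLC30A10 (ENSG00000196660, chromosome 1 from 219685427 to 219959018 on the minus strand) exports manganese and had CPM of 5.58, 5.85, 4.71 and 6.37 for K562, 14.7, 13.1, 15.5 and 15.4 for K/VP.5 and 10.1, 11.9, 12.2 and 11.04 for K562/SSedit-2. Both derived lines were above K562 in every sample. SLC30A10 rose in K/VP.5 (log2 fold change 1.38, SE 0.11, adjusted p = 2.29e-08) and in K562/SSedit-2 (log2 fold change 1.01, SE 0.11, adjusted p = 1.62e-05), where the fold change was at the cutoff and dropped under it without K562 replicate 3 (0.93), K562/SSedit-2 replicate 2 (0.996) or K562/SSedit-2 replicate 3 (0.98), and with no filter on low counts (0.98). The plasma membrane zinc exporter SLC30A1 had 84.2 ± 2.71 CPM for K562, 80.7 ± 5.36 for K/VP.5 and 83.5 ± 5.71 for K562/SSedit-2. The log2 fold changes of the 11 SLC39 members ran from -0.66 to 0.12 in K/VP.5 against K562 and from -0.36 to 0.36 in K562/SSedit-2 against K562. None was called by edgeR, where 15.6% and 2.06% of all tested genes were called in these comparisons, so that none of 11 says little. SLC11A1, a divalent metal carrier of phagosomes, fell in K/VP.5 from 4.13 ± 1.02 to 1.60 ± 0.390 CPM (log2 fold change -1.36, SE 0.21, adjusted p = 5.11e-05).

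Of the inorganic ion carriers, SLC12A7 (ENSG00000113504, chromosome 5 from 1050384 to 1112063 on the minus strand) exports potassium with chloride. Its CPM was 44.4, 41.8, 36.8 and 31.9 for K562, 91.5, 92.7, 91.6 and 93.5 for K/VP.5 and 42.02, 35.98, 37.8 and 31.9 for K562/SSedit-2. K/VP.5 lay above both other lines, and SLC12A7 rose there against K562 (log2 fold change 1.25, SE 0.10, adjusted p = 2.3e-08). Its paralog SLC12A4 had 66.1 ± 4.47, 65.9 ± 6.32 and 67.7 ± 4.47 CPM. SLC4A11 (ENSG00000088836, chromosome 20 from 3227417 to 3239559 on the minus strand), which conducts protons and ammonia, had CPM of 4.73, 3.98, 3.47 and 3.69 for K562, 4.90, 4.50, 5.10 and 5.18 for K/VP.5 and 1.81, 1.71, 2.03 and 2.21 for K562/SSedit-2. The K562/SSedit-2 samples lay below all others. SLC4A11 fell in K562/SSedit-2 (log2 fold change -1.03, SE 0.14, adjusted p = 0.000179), with a fold change near the cutoff that fell short of it without K562 replicate 1 (-0.94), K562/SSedit-2 replicate 1 (-0.9997) or K562/SSedit-2 replicate 2 (-0.96), and under upper-quartile scaling (-0.998).

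The phosphate importers SLC20A1 and SLC20A2 differed from each other. SLC20A1 had CPM of 500.5, 479.7, 426 and 417 for K562, 210.2, 301, 249 and 236 for K/VP.5 and 531, 533, 517 and 542 for K562/SSedit-2. SLC20A2, chosen as its paralog after values were seen, had 43.2 ± 0.834 CPM for K562, 62.4 ± 2.80 for K/VP.5 and 43.05 ± 2.47 for K562/SSedit-2. Against K562, the log2 fold changes in K/VP.5 were -0.87 for SLC20A1 and 0.53 for SLC20A2, both under the cutoff. Their per-length ratio was 12.4 ± 1.29 for K562, 4.70 ± 0.921 for K/VP.5 and 14.5 ± 0.894 for K562/SSedit-2. In K562/SSedit-2 against K/VP.5, SLC20A1 was called higher (log2 fold change 1.09, SE 0.09, adjusted p = 5.84e-08). The abundant anion exchanger SLC4A2 had 396 ± 17.5, 385 ± 25.4 and 359.8 ± 29.5 CPM, and its small K/VP.5 difference from K562, -0.04, became 0.026 under upper-quartile scaling.

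Mitochondrial carriers held 5 of the 12 highest per-length levels. They had 4 of the 30 calls in K/VP.5 against K562, or 10.3% of the 39, beside 15.6% of all tested genes. The ADP/ATP carriers SLC25A4, SLC25A5 and SLC25A6 together had a per-length level of 662 ± 30.6 CPM per kb for K562, 559 ± 18.1 for K/VP.5 and 688 ± 13.3 for K562/SSedit-2. SLC25A5 held 63.7 ± 3.69% of that sum in K562, 54.3 ± 1.40% for K/VP.5 and 69.6 ± 1.31% for K562/SSedit-2. SLC25A6 held 34.4 ± 3.81%, 43.4 ± 1.39% and 28.7 ± 1.30%, and the heart and muscle form SLC25A4 the small remainder. These paralogs and their pseudogenes share sequence, so their split is uncertain. In CPM, SLC25A5 had 642, 636, 686 and 657 for K562, 503, 443, 483 and 460.5 for K/VP.5 and 740.3, 718, 760.0 and 760.3 for K562/SSedit-2, without overlap between lines, at log2 fold changes of -0.47 and 0.19 against K562. SLC25A3 had 749.6 ± 67.7, 808 ± 23.8 and 779 ± 31.98 CPM, and SLC25A39 had 229.6 ± 27.5, 213 ± 18.4 and 217 ± 18.3, both with overlapping ranges. SLC25A1 was lower in all K/VP.5 samples than in all K562 samples, at a log2 fold change of -0.51 (adjusted p = 4.14e-05) under the cutoff.

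SLC25A51 (ENSG00000122696, chromosome 9 from 37879400 to 37904353 on the minus strand) imports NAD+ into mitochondria. Its CPM was 14.3, 11.99, 11.3 and 11.9 for K562, 32.5, 28.9, 31.4 and 33.4 for K/VP.5 and 13.4, 12.2, 11.5 and 14.1 for K562/SSedit-2. All K/VP.5 samples lay above all others, and SLC25A51 rose against K562 (log2 fold change 1.35, SE 0.09, adjusted p = 5.4e-09). Its close paralog SLC25A52 can share its reads. SLC25A24, the carrier of ATP-Mg for phosphate, had 17.5 ± 1.44 CPM for K562, 38.1 ± 3.45 for K/VP.5 and 17.8 ± 0.885 for K562/SSedit-2 and rose in K/VP.5 (log2 fold change 1.12, SE 0.08, adjusted p = 1.56e-08). SLC25A30 rose and the glutamate carrier SLC25A22 fell in K/VP.5 at log2 fold changes of 1.08 and -1.06, and both were named after their values were seen because they complete the 4 mitochondrial calls. With upper-quartile factors SLC25A22 was at -0.996, under the cutoff. No mitochondrial carrier was called by edgeR in K562/SSedit-2 against K562, where 2.06% of all tested genes were called, so that none of 39 says little. Of the 39, 9 (23.1%) had an adjusted p under 0.1, beside 12.6% of all tested genes and 17% of protein-coding genes of at least 1 CPM, and the log2 fold changes ran from -0.98 to 0.30.

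Against K562, the 4 calls in K562/SSedit-2 were thus SLC7A8 and SLC30A10 higher and SLC27A6 and SLC4A11 lower. Without K562 replicate 4 the number was 7, with 2 higher and 5 lower, and leaving out any other replicate gave 3 to 6. Side by side, with the same K562 samples in both, the log2 fold changes were 1.41 in the edited line and 2.96 in K/VP.5 for SLC7A8, 1.01 and 1.38 for SLC30A10, and -1.81 and -1.17 for SLC27A6. SLC4A11 was not called in K/VP.5, where its log2 fold change was 0.31 (adjusted p = 0.0651). In K562/SSedit-2 against K/VP.5, the largest rises, leaving out SLC52A3, were SLC6A19 (4.15), SLC43A3 (3.65), SLC10A4 (1.76) and SLC16A3 (1.63) in log2 fold change. SLC52A3 was also among the calls and is given without a test. The largest falls, leaving out SLC7A2, SLC37A1 and SLC30A4, were SLC29A4 (-2.80) and SLC2A6 (-1.91). The iodide carrier SLC5A5, added after its values were seen, was under the cutoff in both comparisons with K562 (0.94 for K/VP.5 and -0.95 for the edited line), near enough to be called in some alternatives, and called between the derived lines (log2 fold change -1.90, SE 0.20, adjusted p = 7.18e-07).

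The other members called between the derived lines are given by their log2 fold change, and those outside the rule for named genes were picked with their values known. Higher in K562/SSedit-2, beside those above and SLC20A1 and SLC38A1, were SLC3A2 (1.41), SLC2A3 (1.31), SLC10A3 (1.15), SLC27A2 (1.44), SLC2A14 (1.49), SLC11A1 (1.22) and SLC44A5 (1.14). Lower, beside those above and SLC7A8, were SLC12A7 (-1.32), SLC25A24 (-1.10), SLC22A5 (-1.004), SLC25A51 (-1.30), SLC43A2 (-1.09), SLC26A11 (-1.32), SLC25A30 (-1.002), SLC45A3 (-1.27), SLC4A11 (-1.34), SLC25A43 (-1.05) and SLC2A11 (-1.13). SLC22A5 and SLC25A30 lay at the cutoff and lost the call with RLE factors, with the DESeq2 Wald test and with only the compared lines. With each of the 12 replicates left out in turn, SLC22A5 lost it in 9 fits, SLC25A30 in 8, SLC25A43 in 2 and SLC2A11 in 1. SLC44A5 belongs to the choline transporter-like proteins, SLC43A2 carries large neutral amino acids and SLC2A11 is a hexose carrier. Of the 30 calls in K/VP.5 against K562, the remaining member was SLC8A2, a sodium/calcium exchanger, with 1.40 ± 0.650 CPM for K562, 2.89 ± 0.493 for K/VP.5 and 1.66 ± 0.268 for K562/SSedit-2 (log2 fold change 1.06, SE 0.26, adjusted p = 0.00329), and it lost the call without K562 replicate 3, K562 replicate 4 or K/VP.5 replicate 2.

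The members with the smallest differences, among those of at least 10 CPM, were SLC25A36, SLC12A4, SLC15A4, SLC30A1 and SLC35A2. SLC25A36, a mitochondrial carrier of pyrimidine nucleotides, had CPM of 27.00, 27.3, 28.6 and 27.98 for K562, 25.9, 29.3, 30.3 and 27.7 for K/VP.5 and 23.7, 30.7, 28.2 and 28.9 for K562/SSedit-2. SLC15A4, a histidine and peptide carrier of lysosomes, had 21.3 ± 0.734, 20.8 ± 0.796 and 20.6 ± 0.738 CPM in the same order. SLC35A2, which brings UDP-galactose into the Golgi, had 57.5 ± 1.02, 54.9 ± 3.12 and 55.9 ± 1.57 CPM. The ranges of these genes overlapped in all 3 comparisons.

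Position on the chromosome was not part of the rule for members. For the members named in comparisons with K562, the tested protein-coding genes within 250 kb were counted, and the genes described here were chosen after these values were seen. The counts stand beside 8.98% of all tested genes called higher and 6.66% called lower in K/VP.5 against K562. Around many of the named members not described here, few or none of the neighbours were called. Around SLC10A3 on chromosome X, 11 of 15 neighbours were called lower against K562 in K/VP.5 and none higher, with a median log2 fold change of -1.27. They included FLNA (-1.40) and UBL4A (-1.14), whose gene lies next to SLC10A3. Around SLC10A4, 2 of 4 neighbours were called lower, SLAIN2 (-1.21) and ZAR1 (-1.74), and the others, FRYL (-0.68) and TEC (-0.92), were also negative. Around SLC25A51, DCAF10 (1.53) and EXOSC3 (1.13) were called higher among 4 neighbours with positive values. By contrast, SLC6A19 fell among 5 neighbours of which 3 were called higher, SLC12A7 (1.25), TERT (1.34) and NKD2 (3.60). None of the 23 neighbours of SLC3A2 and none of the 15 neighbours of SLC7A8 was called by edgeR, with median log2 fold changes of -0.04 and 0.02. The cause of these differences was not tested.

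**Figure D5:**
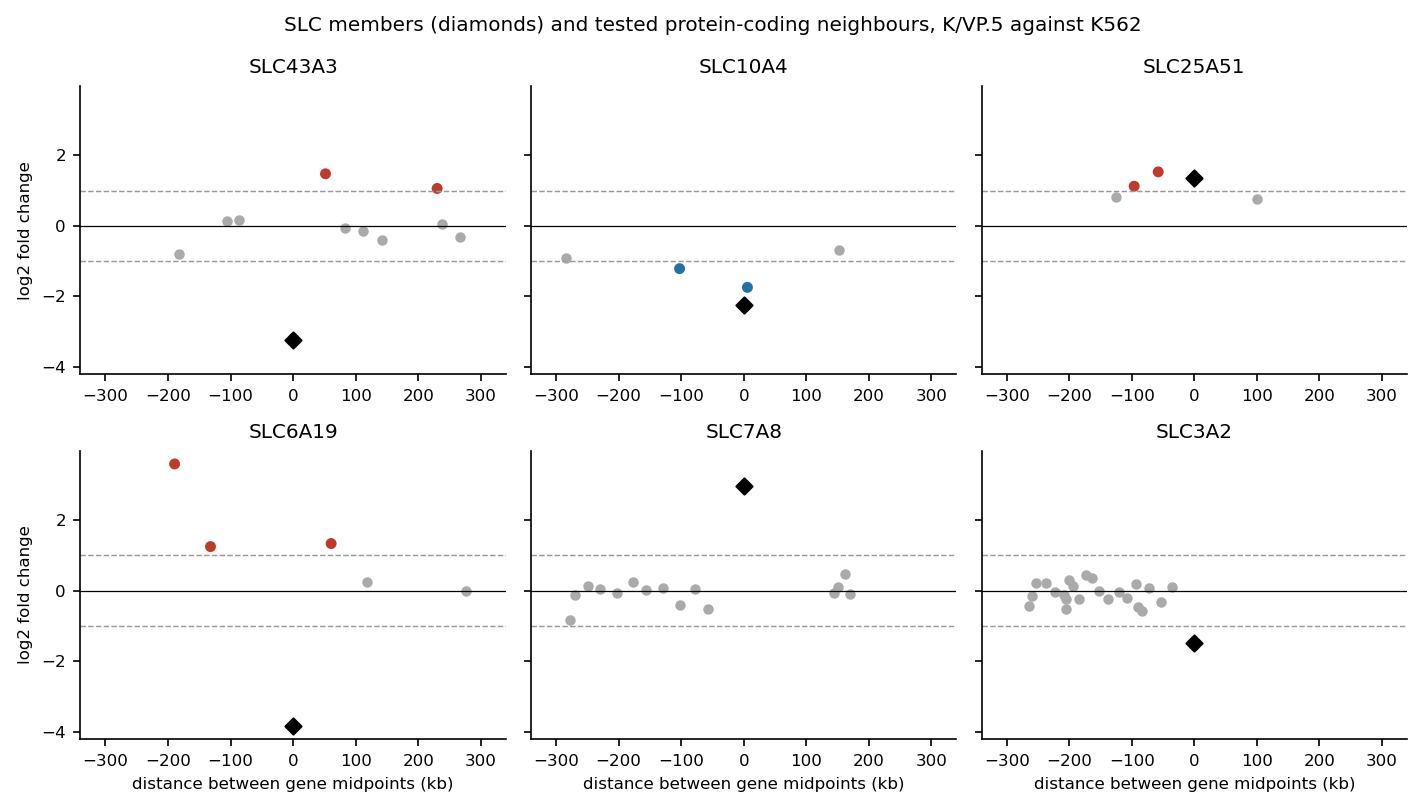
Log2 fold change in K/VP.5 against K562 of 6 members and of the tested protein-coding genes within 250 kb, by distance in kb between gene midpoints. The neighbours of SLC10A4 lie between -1.74 and -0.68, those of SLC25A51 between 0.78 and 1.53, and those of SLC3A2 between -0.57 and 0.43 while SLC3A2 itself is at -1.47.

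Chromosomes 11, 12, 13 and X were picked from the 23 with their values known. In K/VP.5 against K562, 1 of 9 members on chromosome 11 was positive (median log2 fold change -0.64, beside -0.13 for the 665 protein-coding genes of at least 1 CPM there) and 1 of 8 on chromosome 12 (median -0.87, beside -0.005 for 601). Of these protein-coding genes, 39.1% were positive on chromosome 11 and 49.8% on chromosome 12. On chromosome X, which holds SLC10A3, 3 of 10 members were positive (median -0.19), beside 27.9% of 387 protein-coding genes (median -0.31). On chromosome 13, the 4 members were all positive, with a median of 0.71. Of the 179 protein-coding genes of at least 1 CPM on chromosome 13, 81.6% were positive, with a median of 0.45. The members there were SLC7A1 (0.72), SLC25A15 (0.48), SLC25A30 (1.08) and SLC46A3 (0.70), of which SLC25A30 passed the cutoff. For the edited line against K562, 2 of the 4 were positive, and the chromosome's median was 0.05.

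Promoters of 150 members were found in the RefSeq table, which held 27305 promoters with 1 a gene. In the 250 bases before the start, on both strands, TGATGNAA (core letters of the amino acid response element read by ATF4) was found in 4 of 150 members and 3.19% of all promoters. TGACNNNGC (core letters of the antioxidant response element) was found in 21 of 150 members and 11.03% of all promoters, among them SLC3A2, SLC25A1, SLC25A5 and SLC20A1. AGATAA was found in 5 of 150 members and 9.37% of all promoters. Of the 11 matched members that fell in K/VP.5, 1 held AGATAA (SLC6A19), 1 held TGATGNAA (SLC11A1) and 1 held TGACNNNGC (SLC3A2). Of the 13 matched members called higher, 1 held TGACNNNGC (SLC25A24) and none held either of the others. A match is a description of letters and not a binding site.

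Genes that carry, power or regulate solute carriers were listed apart from the members, and 24 of the 30 were tested. WNK kinases act through the kinases OXSR1 and STK39. OXSR1 had 176 ± 5.36 CPM for K562, 150 ± 7.99 for K/VP.5 and 176 ± 9.22 for K562/SSedit-2, and was called in no comparison. STK39 passed the filter on low counts through K/VP.5 alone and is given without a test. Its CPM was 0.397 ± 0.177 for K562, 1.07 ± 0.0760 for K/VP.5 and 0.129 ± 0.0556 for K562/SSedit-2. Of the other 23, 2 were called higher and 3 lower in K/VP.5 against K562, beside 8.98% and 6.66% of all tested genes, and none in K562/SSedit-2 against K562. The sodium pump subunit ATP1B2 rose from 16.4 ± 1.46 to 35.8 ± 2.45 CPM (log2 fold change 1.12, SE 0.09, adjusted p = 2.63e-08), and the kinase WNK2, which acts on SLC12 carriers, rose from 41.3 ± 1.51 to 101 ± 7.70 CPM (log2 fold change 1.29, SE 0.08, adjusted p = 8.73e-10). TXNIP, which restrains glucose uptake through SLC2A1, had CPM of 352, 232, 231 and 214 for K562, 148, 133, 128 and 100.1 for K/VP.5 and 387, 313, 329.9 and 294 for K562/SSedit-2. TXNIP was called lower in K/VP.5 at the cutoff (log2 fold change -1.02, SE 0.15, adjusted p = 2.54e-05), and it lost the call without K562 replicate 1 (-0.85) or K/VP.5 replicate 4 (-0.91), with upper-quartile factors (-0.94), with limma voom (-0.99) and with at least 1 CPM in at least 4 samples (-0.99). Its relative ARRDC4 fell in K/VP.5 (log2 fold change -3.09, SE 0.34, adjusted p = 1.23e-06), as did the metallothionein MT2A (log2 fold change -1.78, SE 0.40, adjusted p = 0.00157). MT2A was low, at 1.68 ± 0.705 CPM for K562, 0.475 ± 0.226 for K/VP.5 and 1.30 ± 0.622 for K562/SSedit-2. Its K562 values ran from 2.56 in replicate 1 to 0.899 in replicate 4. The other tested metallothionein, MT1X, was called in no comparison and its ranges overlapped. BSG, the chaperone of SLC16A1 and SLC16A3, had 625 ± 83.4 CPM for K562, 777 ± 27.4 for K/VP.5 and 602 ± 29.2 for K562/SSedit-2, a difference under the cutoff. In K562/SSedit-2 against K/VP.5, 4 of the 23 were higher and 1 lower, beside 6.2% and 9.62% of all tested genes.

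Markers were read in the same samples. The 6 markers of K562 cells given here were tested, and their summed level was 2860.5 to 4848 CPM over the 12 samples. TFRC took the largest part of that sum, at 2659 ± 374 CPM for K562, 1880.1 ± 215 for K/VP.5 and 3419 ± 151 for K562/SSedit-2, and per length HBG2 was highest of the 6 in each line. None of the 6 was called in any comparison. In K/VP.5 against K562, TAL1 (0.65) and HBG1 (0.72) were higher and GATA1 (-0.49) and TFRC (-0.50) lower without overlap, while KLF1 (-0.06) and HBG2 (0.09) overlapped. In K562/SSedit-2 against K562, TAL1 (0.31), HBG1 (0.75), HBG2 (0.74) and TFRC (0.36) were higher without overlap, and GATA1 and KLF1 overlapped. Of 10 markers of other cell types, 5 were tested, with a summed level of 163 to 238 CPM that was mostly EPCAM, at 176 ± 18.8 CPM for K562, 129 ± 6.46 for K/VP.5 and 177 ± 7.37 for K562/SSedit-2. CD3D had 32.8 ± 12.4, 8.34 ± 1.71 and 43.1 ± 7.01 CPM in that order, and COL1A1 2.59 ± 1.41, 22.5 ± 3.56 and 2.16 ± 0.470. CDH1, at 0.275 ± 0.117, 0.905 ± 0.207 and 0.0774 ± 0.0387 CPM, passed the filter through K/VP.5 alone and is given without a test. Of the other 4, COL1A1 was called higher and CD3D lower in K/VP.5 against K562, none was called in the edited line against K562, and between the derived lines CD3D was called higher in K562/SSedit-2 and COL1A1 lower. CD3E, MS4A1, CD79A, DCN and ALB had 0 to 37 counts a sample and were not tested. The part of other cell types in the members' differences was not tested.

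Exon bases of 94 members overlap another gene, and for SLC7A6, SLC7A6OS, SLC46A1, SLC9A3, SLC35A1, SLC39A1 and SLC2A12 over 50% do, so that the counts of these genes are uncertain.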

How the data were processed

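The RNA-seq samples number 12, with 4 per line. The authors deposited raw counts, 1 whole number per gene and sample, for 60671 Ensembl genes, made with HISAT2 and featureCounts on GRCh38 according to the submitters' processing notes. The annotation release, strand setting and handling of multimapping reads are not given in the sources used here. Of the gene IDs, 60401 were found in GENCODE 44, which gave symbols, types, positions and exon lengths.

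The members and lists were chosen with earlier results of these data known. The symbol pattern takes in genes such as SLC2A1 and no SLC35B, SLC35C, SLC9B or SLCO gene. Roles were assigned by SLC family, so single members can differ: SLC5A6 (biotin and pantothenate) and SLC5A5 (iodide) stand with sugars, SLC43A3 with amino acids. SLC7A6OS was recognised as no carrier after the data were seen.

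Fits ran in R 4.3.3 (DESeq2 1.42.0, edgeR 4.0.16, limma 3.58.1), tables and figures in Python 3.11.15 (matplotlib 3.10.9, pandas 2.3.3). The filter was filterByExpr (minimum count 10), and 18626 genes passed. With TMM factors, 1 fit by line over the 12 samples gave edgeR's quasi-likelihood F tests, and p was adjusted by Benjamini and Hochberg across every tested gene. Calls needed a log2 fold change of 1 in size at an adjusted p under 0.1. CPM uses the TMM-scaled counts in tested genes, so that 3 counts correspond to 0.0691 to 0.102 CPM. The standard error (SE) was taken as |log2 fold change| over √F.

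Named genes were the 12 largest rises and 12 largest falls among called members without overlap in K/VP.5 against K562, up to 10 of each in K562/SSedit-2 against K562 and 5 of each in K562/SSedit-2 against K/VP.5, the 12 of highest per-length level, 16 textbook carriers, the 5 of smallest difference, and 3 on each side of the CPM limit. Replicate numbers were checked as pairs by correlating, across genes, deviations from line means: r was 0.135 to 0.292 for K562 with K562/SSedit-2 samples of the same number (mean -0.07 for other numbers), -0.003 to 0.27 for K562 with K/VP.5, and -0.09 to 0.16 for K/VP.5 with K562/SSedit-2. Genes are not independent replicates. A fit with the number as a block was therefore an alternative. The others were RLE and upper-quartile factors, the DESeq2 Wald test, limma voom, other filters, fits of the compared lines only, each replicate left out, adjusted p held under 0.05, calls without a fold cutoff, and members of at least 5 CPM.

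The steps were tested on simulated data. Protein features were planned and are not analysed here. A planned marker of K562 cells is not reported here.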

Additional observations from a re-analysis of the deposited data

Results flagged for a closer look

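In 52 named members, the 4 replicates of each line were searched for a value far from the other 3, which made 156 groups. A value was taken as far when its gap to the nearest other value, over the range of the group, was above Dixon's critical value for 4 values. Chance gives about 1 in 20 groups, so the 7 values found are no more than chance would give. They are listed as CPM, without explanation.

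In K562 replicate 1, 3 members stood apart. SLC38A2 was at 335 CPM against 198 to 206 in the other K562 replicates. SLC29A4 was at 2.89 against 1.24 to 1.52, and SLC27A2 was at 17.5 against 16.01 to 16.1. In K562 replicate 4, SLC52A3 was at 2.07 against 1.13 to 1.24. In K/VP.5 replicate 2, SLC38A1 was at 49.9 against 43.3 to 44.2. In K562/SSedit-2 replicate 4, SLC25A39 was at 189.6 against 223 to 229.8, and in K562/SSedit-2 replicate 2, SLC25A4 was at 59.1 against 57.9 to 58.1.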

How the results depend on the processing

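The 57 named results were recomputed under 20 alternatives each, 1140 in all, and 1123 kept their direction and their side of the threshold. In 8 the call was lost and in 5 it was gained, with the same sign. The lost calls were SLC4A11 and SLC30A10 in K562/SSedit-2 against K562, and the gained call was SLC38A1 in K/VP.5 against K562 (-1.01 to -1.06). In 4 the sign turned, for values near 0 that were not called. SLC4A2 in K/VP.5 against K562 was 0.026 with upper-quartile factors. SLC19A1 in the same comparison was 0.047 with upper-quartile factors, 0.0031 with at least 1 CPM in at least 4 samples, and 0.043 without K/VP.5 replicate 2, and it kept its sign at -0.066 without K/VP.5 replicate 4 (main fit -0.02). The cause was not tested. Upper-quartile factors shift the median of all tested genes by 0.07 in K/VP.5 against K562.

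For the numbers of called members, a fit with the replicate number as a block kept all 30, 4 and 32 calls, as did limma voom. RLE factors, the DESeq2 Wald test and a fit of only the compared lines gave 30 (14 higher, 16 lower) in K562/SSedit-2 against K/VP.5, without SLC22A5 (-1.004 in the main fit) and SLC25A30 (-1.002), which lay at the cutoff. Upper-quartile factors lost SLC4A11 in K562/SSedit-2 against K562 (3 calls) and SLC25A22 in K/VP.5 against K562, where they gained SLC5A5 (30 calls, 16 higher and 14 lower), and gained SLC17A7 in K562/SSedit-2 against K/VP.5 (33 calls). SLC5A5 was also called in K/VP.5 against K562 without K562 replicate 1 (1.14), and in K562/SSedit-2 against K562 without K562 replicate 3 (-1.003), K562 replicate 4 (-1.04) or K562/SSedit-2 replicate 1 (-1.01). Other calls gained with a replicate left out, leaving SLC7A2 aside, were SLC25A35, SLC38A1, SLC44A5 and SLC6A16 in K/VP.5 against K562, SLC1A4, SLC25A43 and SLC29A4 in K562/SSedit-2 against K562, and SLC17A7, SLC27A1 and SLC6A16 in K562/SSedit-2 against K/VP.5. With no filter on low counts, SLC38A1 was gained in K/VP.5 against K562 and SLC25A43 in K562/SSedit-2 against K562. With no fold change cutoff, by construction, 109 members passed in K/VP.5 against K562 (51 higher, 58 lower), 46 in K562/SSedit-2 against K562 (14 and 32) and 116 in K562/SSedit-2 against K/VP.5 (48 and 68). The shares of all tested genes were then 52.3%, 12.6% and 54%, and of protein-coding genes of at least 1 CPM 60.6%, 17% and 63.3%. Among the 142 members of at least 5 CPM, fewer genes by construction, 20 were called in K/VP.5 against K562 (9 higher, 11 lower; 14.1%, beside 8.46% of all 10244 tested genes of that level), 2 in K562/SSedit-2 against K562 (1.41%, beside 0.888%) and 20 in K562/SSedit-2 against K/VP.5 (14.1%, beside 8.48%). With each replicate left out in turn, 29 to 33 members were called in K/VP.5 against K562, 3 to 7 in K562/SSedit-2 against K562 (7 without K562 replicate 4) and 30 to 32 in K562/SSedit-2 against K/VP.5. The cause was not tested.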

Other observations

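Of the 155 SLC genes under 1 CPM, 31 passed the filter on low counts. In K/VP.5 against K562, 10 of them were called higher and 2 lower by edgeR, in K562/SSedit-2 against K562 none higher and 1 lower, and in K562/SSedit-2 against K/VP.5 3 higher and 12 lower. In that order, the shares of all tested genes called higher and lower were 8.98% and 6.66%, 0.805% and 1.26%, and 6.2% and 9.62%. A gene this low could pass the filter through 1 line alone, so these counts support nothing about the members. The glutamate carrier SLC1A3 had 0.0805 ± 0.0393 CPM (mean ± SD) for K562, 1.56 ± 0.0729 for K/VP.5 and 0.0219 ± 0.0284 for K562/SSedit-2. The magnesium carrier SLC41A2 had 0.137 ± 0.0491, 1.57 ± 0.195 and 0.201 ± 0.0849 CPM, and the vesicular monoamine carrier SLC18A2 had 0.688 ± 0.236, 0.120 ± 0.0403 and 0.400 ± 0.0949. SLC16A9, the 1 gene called lower in K562/SSedit-2 than in K562, had 0.450 ± 0.132, 1.21 ± 0.162 and 0.0343 ± 0.0415 CPM. These genes were chosen after their values were seen.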
